A study of Mus musculus with 9 samples.

Results

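The 10 genes that define T cells here were followed in RNA from liver macrophages after partial hepatectomy (PHx), an operation that takes out part of the liver. They are the CD3 chain genes Cd3d, Cd3e and Cd3g, the coreceptor genes Cd4, Cd8a and Cd8b1, the signalling genes Lck and Lat, the adhesion gene Cd2 and the transcription factor gene Tcf7. They were taken by symbol from the deposited gene table, 10 of its 56691 genes. The libraries came from male C57BL/6 mice, taken 0, 24 or 48 h following PHx, with 3 libraries at each time and 9 in all. Cells positive for both F4/80 and CD11b, proteins carried by macrophages and by some other myeloid cells, were sorted from the liver before RNA extraction. The 0 h libraries, from the same sort, were the reference, and no sham-operated group was analysed here. Whether replicate libraries are separate mice is not stated, so each p-value speaks only of spread among libraries, possibly technical.

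T cells recognise antigen through the T-cell receptor, whose antigen-binding chains reach the cell surface only in a complex with the CD3 chains. The coreceptors CD4 and CD8 mark helper and cytotoxic T cells and bring the kinase Lck to the receptor. Lck starts the signal inside the cell and the adaptor Lat passes it on, while Tcf7 encodes TCF-1, a transcription factor of T-cell development and of naive and memory T cells. Not all of these genes are confined to T cells. Natural killer (NK) cells also use Lck, Lat and Cd2, and other lymphocytes can carry Cd2 too. Some mouse dendritic cells carry CD8α, and some dendritic cells and macrophages carry CD4. The CD3 chains Cd3d, Cd3e and Cd3g are the narrowest markers of the list.

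The sort was checked against macrophage genes. Adgre1, which encodes F4/80, had 128 to 172 CPM (0 h), 125 to 157 CPM (24 h) and 63.6 to 221 CPM (48 h), where CPM is a count relative to the library total, scaled by TMM, a correction for composition. Itgam, which encodes CD11b, had 10.8 to 20.1 CPM at 48 h, against 36.4 to 73.9 CPM at 0 h, and fell by 1.62 on the log2 scale (edgeR adjusted p = 0.00613). Cd68, another macrophage gene, fell by 1.48 on the log2 scale at 48 h against 0 h (edgeR adjusted p = 0.0169). With libraries scaled by their totals alone this fall missed the threshold (adjusted p = 0.0829). Csf1r, also set beforehand as a marker of the sort, is counted with the macrophage and monocyte markers below. Library totals were 53297943 to 67951168 counts. Mitochondrial genes took 3.01% to 4.53% of counts in 0 h libraries, 2.37% to 3.72% in 24 h libraries and 7.06% to 17.9% in 48 h libraries. The coefficient of variation between libraries estimated by edgeR was 0.417 for the 0 h libraries, 0.437 for the 24 h libraries and 0.821 for the 48 h libraries, so the 48 h libraries differed most among themselves.

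The 3 CD3 chain genes lie together on chromosome 9, Cd3d on the plus strand and Cd3g and Cd3e on the minus strand. Cd3g and Cd3d run in opposite directions from starts 1355 bases apart. Their promoters are shown because these genes define the lineage and rose together at 48 h. Each sequence holds 250 bases before and 30 after a transcription start in RefSeq on GRCm38.p6, written 5′ to 3′, with capitals marking CAGGTG on either strand (CACCTG when read on the other strand), a form of the E-box bound by E proteins such as E2A and HEB.
Cd3g, chr9:44980402-44980681, minus strand: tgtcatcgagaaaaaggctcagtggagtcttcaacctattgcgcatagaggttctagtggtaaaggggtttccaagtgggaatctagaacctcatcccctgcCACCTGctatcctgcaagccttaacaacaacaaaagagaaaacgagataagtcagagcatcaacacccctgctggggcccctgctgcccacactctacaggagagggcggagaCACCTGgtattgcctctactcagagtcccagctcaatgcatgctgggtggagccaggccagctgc
Cd3d, chr9:44981536-44981815, plus strand: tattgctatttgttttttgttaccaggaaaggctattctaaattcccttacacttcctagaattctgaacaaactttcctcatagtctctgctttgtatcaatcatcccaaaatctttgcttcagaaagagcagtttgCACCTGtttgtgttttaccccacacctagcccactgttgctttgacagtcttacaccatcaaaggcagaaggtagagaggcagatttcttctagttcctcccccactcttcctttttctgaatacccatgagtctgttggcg
Cd3e, chr9:45009582-45009861, minus strand: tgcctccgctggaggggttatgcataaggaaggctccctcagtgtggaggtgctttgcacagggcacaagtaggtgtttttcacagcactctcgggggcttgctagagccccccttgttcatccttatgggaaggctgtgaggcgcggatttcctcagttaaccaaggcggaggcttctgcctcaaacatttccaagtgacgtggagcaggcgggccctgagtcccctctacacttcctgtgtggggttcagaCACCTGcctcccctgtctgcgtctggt
The Cd3g promoter holds 2 matches, which begin 148 and 35 bases before the start. The match in Cd3d begins 112 bases before the start, and the match in Cd3e begins at base 4 of the transcript. Of all 32851 promoters of this length, 19.1% hold this motif. Promoters were matched for 7 of the 10 genes (Cd3d, Cd3e, Cd3g, Cd8a, Lck, Lat and Tcf7), 9 promoters in all, and Lck also holds the motif. TGTGGT, the core bound by Runx factors, was found on either strand in promoters of Lat and Lck and in 15.6% of all promoters. Several motifs were searched, and the marked one had the most matches, in 5 of the 9 promoters. It was the only one found in all 3 CD3 chain genes. Another form of the E-box was found in 3 of the 9 promoters, those of Cd3g, Cd8a and Tcf7, and in 14.9% of all promoters. The remaining motifs searched were each found in 1 of the 9. Whether the marked motif is linked to the rise at 48 h was not tested. These matches describe the letters in the window and are not evidence of binding.

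At 0 and 24 h the T-cell genes were low, between 0 and 235 counts in a library, and at 48 h every one of them was higher in all 3 libraries than in any earlier library. Summed, the 10 genes reached 5.62, 5.90 and 11.6 CPM at 0 h, 6.63, 4.59 and 7.88 CPM at 24 h, and 57.4, 99.9 and 133 CPM at 48 h (replicates 1, 2 and 3 at each time, the order used throughout). The 0 h and 24 h sums overlapped, and the lowest 48 h library was well above both. RNA of a sorted bulk sample cannot tell apart more cells of a type from more RNA per cell.

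**Figure D1:**
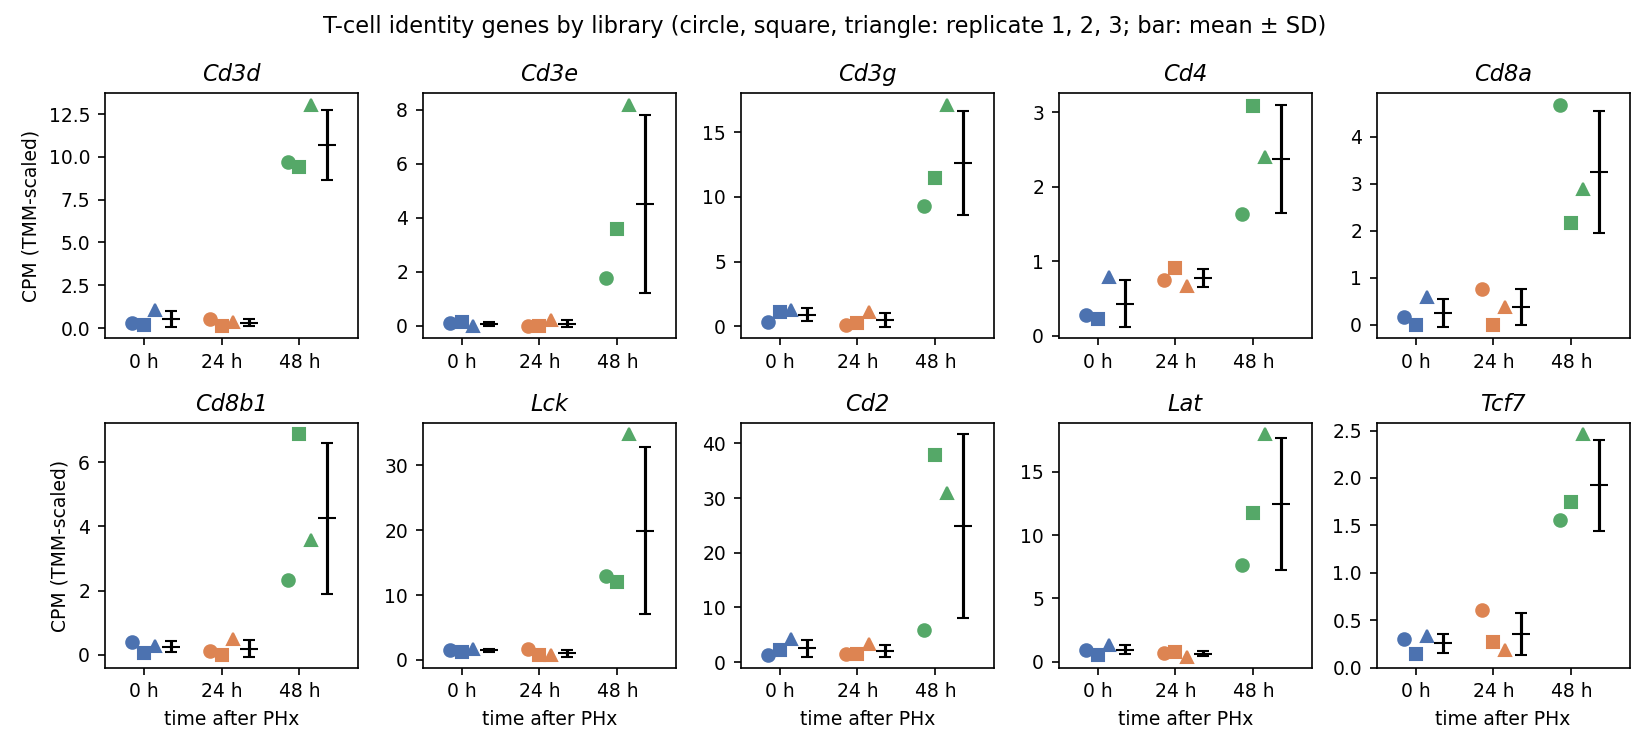
Levels of the 10 T-cell identity genes in each library, in CPM on a linear axis with its own scale for each gene, by time after PHx. Circles, squares and triangles are replicates 1, 2 and 3, and black bars are the mean ± SD (n = 3). For each gene the 3 points at 48 h lie above all 0 h and 24 h points, and replicate 1 at 48 h is the lowest 48 h library for Cd2, at 5.83 CPM.

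The CD3 chains form the signalling part of the T-cell receptor complex. Cd3d (ENSMUSG00000032094) had 0.30, 0.200 and 1.05 CPM at 0 h, 0.533, 0.0925 and 0.336 CPM at 24 h, and 9.68, 9.39 and 13.1 CPM at 48 h. The 48 h libraries were close to each other and far above the rest, while 0 h replicate 3 was the highest of the 6 earlier libraries. Cd3d rose 20.6-fold at 48 h against 0 h (log2 fold change 4.37, SE 0.72, edgeR adjusted p = 0.00195) and 33.2-fold against 24 h (log2 5.05, SE 0.75, adjusted p = 0.00102). Cd3g (ENSMUSG00000002033) had 0.30, 1.13 and 1.23 CPM at 0 h, 0.0952, 0.222 and 1.10 CPM at 24 h, and 9.28, 11.5 and 17.1 CPM at 48 h. The earlier libraries spread widely and overlapped between 0 and 24 h, and none came near the 48 h libraries. Its log2 fold change was 3.83 (SE 0.81, adjusted p = 0.00836) at 48 h against 0 h and 4.73 (SE 0.85, adjusted p = 0.00326) against 24 h.

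Cd3e (ENSMUSG00000032093), which encodes the chain against which many antibodies used to stain T cells are raised, was the lowest of the CD3 genes before 48 h. It had 4, 8 and 0 counts at 0 h, 0, 0 and 12 counts at 24 h, and 159, 229 and 539 counts at 48 h. In CPM these were 0.080, 0.146 and 0 at 0 h, 0, 0 and 0.224 at 24 h, and 1.78, 3.58 and 8.19 at 48 h. With 3 of the 6 early libraries at 0, the size of its rise was poorly determined. The log2 fold change was 5.87 at 48 h against 0 h (95% interval 2.53 to 9.21, adjusted p = 0.0212) and 5.88 against 24 h (2.53 to 9.22, adjusted p = 0.0203). Cd3e passed the filter on low counts only through its 48 h libraries, and the other 9 genes would have passed on the 0 h and 24 h libraries alone. Its exons overlap those of Gm48719 on the opposite strand. The paper describes UDG enzyme treatment of a U-labelled second strand, a library step that keeps track of the strand. No source used here gives the strand setting of the counting, so whether reads of the 2 genes were separated is not known. Gm48719 itself had 4 counts over the 0 h libraries, 0 over the 24 h libraries and 0 over the 48 h libraries.

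The coreceptor genes Cd4 and Cd8b1 were called higher at 48 h against 0 h, and Cd8a was not. Cd4 (ENSMUSG00000023274), the helper T-cell coreceptor, had 0.280, 0.219 and 0.790 CPM at 0 h, 0.743, 0.906 and 0.672 CPM at 24 h, and 1.63, 3.09 and 2.40 CPM at 48 h. The 24 h libraries sat around the highest 0 h library, and the 48 h libraries were above both. Cd4 rose 5.5-fold at 48 h against 0 h (log2 2.46, SE 0.67, adjusted p = 0.0269). Against 24 h its log2 fold change of 1.62 (95% interval 0.19 to 3.05) did not pass the threshold (adjusted p = 0.109).

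The genes of the CD8 coreceptor, the cytotoxic T-cell counterpart, were at 0 in some early libraries. Cd8a (ENSMUSG00000053977), the α chain, had 0.180, 0 and 0.588 CPM at 0 h, 0.762, 0 and 0.392 CPM at 24 h, and 4.69, 2.17 and 2.89 CPM at 48 h. All 48 h libraries were above all earlier ones, but the early values ran from 0 to 0.762 CPM. No call was made for Cd8a: its log2 fold change was 3.65 (95% interval 0.41 to 6.90, adjusted p = 0.114) at 48 h against 0 h and 3.07 (−0.08 to 6.22, adjusted p = 0.163) against 24 h. Cd8b1 (ENSMUSG00000053044), the β chain, had 0.40, 0.0729 and 0.294 CPM at 0 h, 0.114, 0 and 0.485 CPM at 24 h, and 2.33, 6.87 and 3.57 CPM at 48 h. Replicate 2 was the highest 48 h library for Cd8b1 and the lowest for Cd8a. Cd8b1 rose, with a log2 fold change of 4.05 (SE 1.17, adjusted p = 0.0350) at 48 h against 0 h and 4.40 (SE 1.19, adjusted p = 0.0259) against 24 h.

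The signalling genes Lck and Lat had the smallest adjusted p-values of the list. Lck (ENSMUSG00000000409), the kinase held by the coreceptors, had 1.54, 1.28 and 1.69 CPM at 0 h, 1.66, 0.758 and 0.691 CPM at 24 h, and 13.0, 12.1 and 34.8 CPM at 48 h. Replicate 3 was far above the other 48 h libraries, which were still above every earlier one. Lck rose 13.3-fold at 48 h against 0 h (log2 3.73, SE 0.51, adjusted p = 0.000599) and 19.2-fold against 24 h (log2 4.26, SE 0.53, adjusted p = 0.000334). Lat (ENSMUSG00000030742), the membrane adaptor downstream of it, had 0.960, 0.565 and 1.34 CPM at 0 h, 0.705, 0.795 and 0.392 CPM at 24 h, and 7.67, 11.7 and 18.0 CPM at 48 h. The early libraries were tightly grouped by the standard of the list, and the 48 h libraries were spread. Lat rose 13.0-fold at 48 h against 0 h (log2 3.70, SE 0.48, adjusted p = 0.00043) and 19.7-fold against 24 h (log2 4.30, SE 0.50, adjusted p = 0.000227).

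Cd2 (ENSMUSG00000027863), an adhesion receptor of T cells and other lymphocytes, was spread more widely among the 48 h libraries than any other gene of the list in CPM. It had 1.28, 2.15 and 4.32 CPM at 0 h, 1.41, 1.54 and 3.40 CPM at 24 h, and 5.83, 37.8 and 30.9 CPM at 48 h. Replicate 1 at 48 h was much nearer to 0 h replicate 3 than to the other 48 h libraries, although above it. Cd2 rose, with a log2 fold change of 3.26 (SE 0.70, adjusted p = 0.00884) at 48 h against 0 h and 3.55 (SE 0.71, adjusted p = 0.00572) against 24 h. Tcf7 (ENSMUSG00000000782) was among the lowest of the genes at 48 h, with 0.30, 0.146 and 0.331 CPM at 0 h, 0.609, 0.277 and 0.187 CPM at 24 h, and 1.55, 1.75 and 2.46 CPM at 48 h. The earlier times overlapped and the 48 h libraries were above both. Tcf7 rose 7.38-fold at 48 h against 0 h (log2 2.88, SE 0.75, adjusted p = 0.0224) and 5.35-fold against 24 h (log2 2.42, SE 0.73, adjusted p = 0.0420).

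Counted together, 9 of the 10 genes were called higher at 48 h against 0 h (8 of the 9 without Cd3e, which was tested only through its 48 h libraries), where 9.86% of the 20204 genes tested were called higher, and 0 were called lower, where 8.95% of all were. All 10 had an unadjusted p under 0.05, and DESeq2 also called 0 of them lower, as did limma-voom. In all 10, every 48 h library was above every 0 h library, which held for 16.5% of the genes tested. The opposite, every 48 h library below, held for 0 of the 10 and 19.7% of all. The median log2 fold change was 3.72 over the 10 genes (3.70 without Cd3e) and −0.04 over all genes tested. Against 24 h, 8 were called higher (7 without Cd3e) and 0 lower, where 10.2% and 9.6% of all genes were, and DESeq2 and limma-voom again called 0 lower. Every 48 h library was above every 24 h library in all 10, and below in 0, which held for 17.2% and 18.4% of the genes tested. The median log2 fold change was 4.28 (4.26 without Cd3e), against 0.05 over all genes tested. These comparisons share the 48 h libraries and are not independent of each other.

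Some of these calls were lost when 1 library was left out, which also leaves fewer libraries to test. Cd3d, Cd3g, Lck, Cd2 and Lat kept their calls in both 48 h comparisons without any one library. At 48 h against 0 h the number called fell to 5 without 0 h replicate 1 or 0 h replicate 2, and at 48 h against 24 h it fell to 5 without 24 h replicate 1. Against 0 h, Cd3e missed the threshold without any one of the 0 h libraries or without 48 h replicate 3 (adjusted p of 0.0579 to 0.0868), and Tcf7 without the same libraries (0.0506 to 0.0896). Cd4 missed it without 0 h replicate 1 or 2 or 48 h replicate 2 (0.0547 to 0.104). Cd8b1 missed it without any one of the 0 h libraries, 24 h replicate 1 or 48 h replicate 2 or 3 (0.0506 to 0.121). The log2 fold changes against 0 h stayed between 5.15 and 6.81 for Cd3e, 2.18 and 3.24 for Cd4, 3.57 and 4.56 for Cd8b1, and 2.64 and 3.09 for Tcf7 with 1 library left out. Against 24 h, Cd3e missed it without 24 h replicate 1 or 2 or 48 h replicate 3 (0.0609 to 0.0647), Cd8b1 without 24 h replicate 1 or 48 h replicate 2 (0.0623 to 0.101), and Tcf7 without any one library except 48 h replicate 1 (0.0511 to 0.138).

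**Figure D2:**
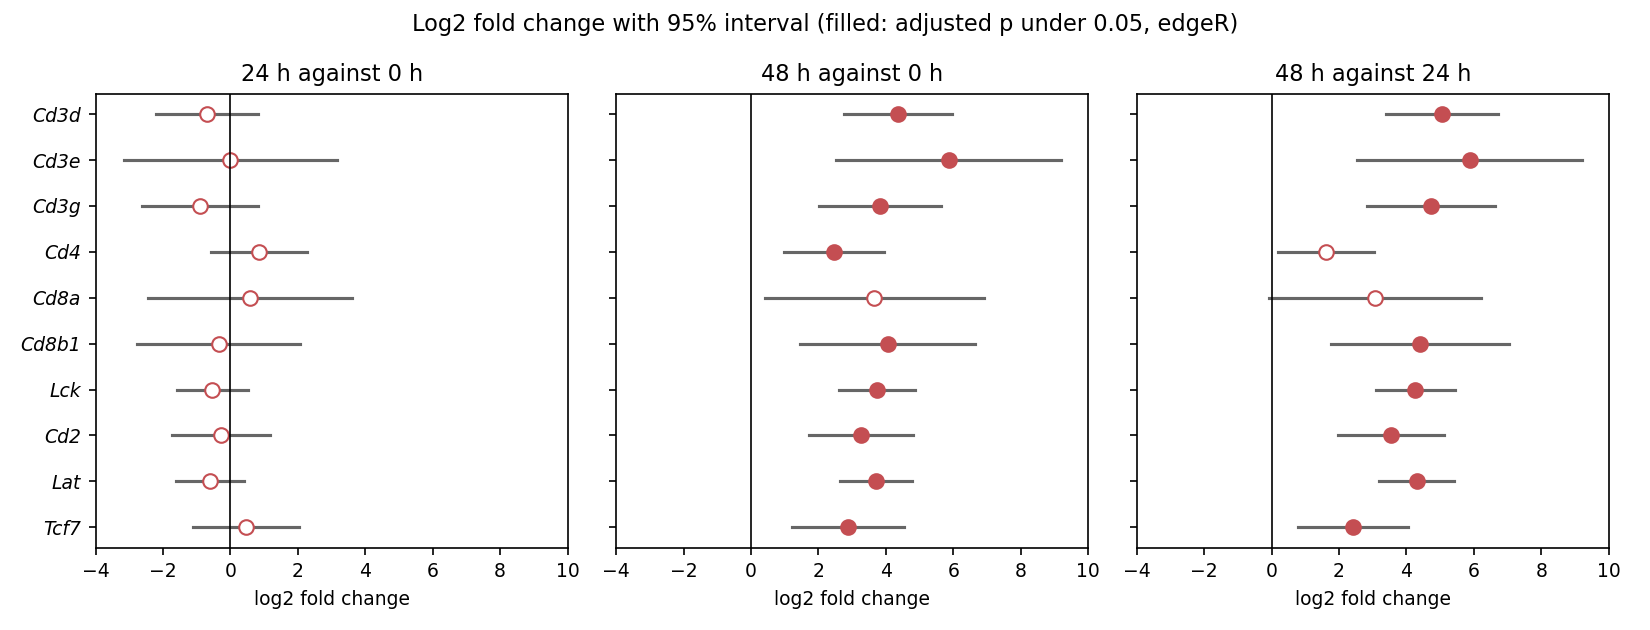
Log2 fold change of each T-cell identity gene in the 3 comparisons, with its 95% interval (edgeR). Filled points had an adjusted p under 0.05, which was so for 0 genes at 24 h against 0 h, 9 at 48 h against 0 h and 8 at 48 h against 24 h.

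No difference was detectable between 24 and 0 h. Of the 10 genes, 0 were called higher and 0 lower by edgeR, DESeq2 or limma-voom, with 0 at an unadjusted p under 0.05 in either direction, and each adjusted p was 1. Few genes of any kind were called in this comparison, 0.0495% higher and 0.0297% lower. The libraries of the 2 times overlapped in every one of the 10, whereas all 24 h libraries were above all 0 h libraries in 8.37% of the genes tested and below them in 8.92%. The log2 fold change was negative for 7 genes and positive for Cd4, Cd8a and Tcf7, with a median of −0.32 over the 10 and −0.03 over all genes tested. The intervals were wide at these levels. For Lck the log2 fold change was −0.54 (95% interval −1.60 to 0.52), and for Lat it was −0.60 (−1.60 to 0.41), the narrowest interval of the list. For Cd3e it was −0.01 (−3.16 to 3.15).

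Levels can be compared between genes only per length, and were divided by the exon length of each gene in GENCODE M21. In CPM per kb at 48 h the order was Cd2 (14.3 ± 9.67), Lck (6.81 ± 4.39), Cd3d (5.90 ± 1.12), Lat (4.50 ± 1.88), Cd3g (3.86 ± 1.24), Cd8b1 (2.87 ± 1.58), Cd3e (1.11 ± 0.81), Cd8a (0.893 ± 0.356), Tcf7 (0.732 ± 0.182) and Cd4 (0.589 ± 0.181; SD, n = 3 each). The libraries of neighbouring genes overlapped at every step of this order. The CD3 chains, which take part in 1 complex, were unequal, with Cd3d above Cd3e in all 3 libraries at 48 h. At 0 h Cd2 was first, at 1.48 CPM per kb, and Cd3e last, at 0.0184 CPM per kb. Exon length was summed over all annotated transcripts, so a gene with long minor transcripts is placed low, and Cd3e, with 4080 bases, had the greatest length of the list.

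The 48 h libraries did not rank the same way for every gene. Replicate 3 was the highest for 6 genes, replicate 2 for Cd4, Cd8b1 and Cd2, and replicate 1 for Cd8a. Over the 9 libraries the 45 pairs of genes had Pearson correlations of log2 CPM between 0.661 and 0.975 (median 0.856), which describe mainly the gap between 48 h and the earlier times and share the scaling of each library. Against the mean profile of the CD3 chains, Lck had a correlation of 0.934, Cd8b1 0.926, Lat 0.924, Cd2 0.919, Tcf7 0.844, Cd8a 0.775 and Cd4 0.760. Outside the gene lists used here, the 5 genes most like the CD3 chains by this measure were Vegfb (0.988), Nostrin (0.987), Igkv8-21 (0.984), Fbxl7 (0.983) and Tmem35b (0.977). Vegfb encodes a growth factor of the VEGF family, Nostrin a protein that binds endothelial nitric oxide synthase, and Igkv8-21 an immunoglobulin light-chain variable segment, whose reads may be shared with similar segments. A correlation does not measure the size of a rise, which differed among these genes. Nostrin had 58.9, 63.1 and 97.6 CPM at 48 h, against 16.3, 17.1 and 25.2 CPM at 0 h. Vegfb had 6.92, 7.26 and 7.87 CPM at 48 h, against 3.30, 3.57 and 2.96 CPM at 0 h. Fbxl7 had 27.0, 14.9 and 29.3 CPM at 48 h, against 1.12, 1.64 and 1.30 CPM at 0 h.

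A wider set of 68 T-cell genes was examined in the same way. Of the 65 that were tested, 22 were called higher and 6 lower at 48 h against 0 h, and 25 higher and 5 lower against 24 h, beside the 9.86% and 8.95%, and 10.2% and 9.6%, of all genes. Those called lower were thus about as frequent as among all genes. Of the 65, 14 were tested only through their 48 h libraries. Among the other 51, 18 were called higher and 6 lower against 0 h, and 21 higher and 5 lower against 24 h. The median log2 fold change over the 65 was 1.99 and 1.71, against −0.04 and 0.05 over all genes tested. Over the 51 alone it was lower, 1.32 and 1.44, against −0.07 and −0.01 over all genes that pass without the 48 h libraries. Setting genes at 0 throughout a time at the bound given below, 1 and 3 genes, left the medians over the 65 the same. So few genes can hardly move a median over 65. Among the T-cell receptor chain genes the bound lowered the median from 4.66 to 4.33 against 0 h and from 4.19 to 3.64 against 24 h. At 24 h against 0 h, 0 were called higher and 0 lower, while 4 of them had an unadjusted p under 0.05 in the upward direction and 2 in the downward direction. DESeq2 called 1 higher and limma-voom 0 there, and both called 0 lower. Leaving out 1 library at a time gave 16 to 23 called higher at 48 h against 0 h, fewest without 48 h replicate 3. The number called lower against 24 h was 3 without 7 of the 9 libraries, each of 0 h replicates 1 and 2, the 24 h libraries and 48 h replicates 2 and 3.

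Of the 8 T-cell receptor chain genes, 5 were called higher and 0 lower at 48 h against 0 h. Among all genes tested these shares were 9.86% and 8.95%. Only 3 of the 8 (Trac, Trbc1 and Trbc2) had enough early counts to be tested without the 48 h libraries, and all 3 were called higher. Trac, the constant part of the receptor α chain, had 7.60, 6.47 and 13.9 CPM at 48 h, against 0.520, 0.437 and 0.716 CPM at 0 h (log2 4.06, SE 0.47, edgeR adjusted p = 0.000216). Trbc1 and Trbc2, the alternative constant parts of the β chain, rose by 4.33 (Trbc1, adjusted p = 0.000791) and 4.98 (Trbc2, adjusted p = 0.000607) on the log2 scale, and reads of these near-identical genes may be split between them. Tcrg-C2, a constant part of the γ chain of the γδ receptor, had 0.917, 0.531 and 2.96 CPM at 48 h and was at 0 in all 0 h and 24 h libraries. Its mean at 48 h was at least 19.5-fold higher than the 0 h level (adjusted p = 0.0126), with the floor set at 12 counts over the time, 3 units of 4 counts, a bound for counting error only. The γ genes are also similar to each other. Cd247, the CD3 ζ chain, had 2.14, 0 and 2.57 CPM at 48 h, against 0.080, 0 and 0.147 CPM at 0 h, and was not called (adjusted p = 0.17). The constant part of the δ chain, Trdc, was at 0 in 48 h replicate 2 and was not called either.

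Of 19 tested genes of receptor signalling, 7 were called higher and 0 lower at 48 h against 0 h, beside 9.86% and 8.95% of all genes. Among the 13 that did not need their 48 h libraries to be tested, 6 were called higher. Grap2, an adaptor that links Lat to its partners, had 13.3, 20.6 and 23.1 CPM at 48 h, against 1.02, 1.58 and 2.26 CPM at 0 h (log2 3.55, SE 0.41, adjusted p = 0.000217). Prkcq, the protein kinase C of T-cell activation, was nearly equal in the 48 h libraries, at 13.6, 13.8 and 14.7 CPM, against 0.680, 0.419 and 1.47 CPM at 0 h (log2 4.03, SE 0.47, adjusted p = 0.000225). Sh2d2a, an adaptor that binds Lck, rose 4.16 on the log2 scale (adjusted p = 0.00236). Fyn, a relative of Lck that endothelial and other cells also express, rose 1.90 on the log2 scale (adjusted p = 7.54e-05), with 156 to 214 CPM at 48 h, against 43.4 to 58.0 CPM at 0 h. Not all signalling genes followed. Zap70, the kinase recruited to the phosphorylated CD3 and ζ chains, had 4.27, 3.06 and 7.45 CPM at 48 h, against 3.06, 3.28 and 7.53 CPM at 0 h (log2 0.09, adjusted p = 0.92).

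Costimulatory and cytokine receptor genes were called higher in 4 of 11 cases at 48 h against 0 h, and lower in 0. Without those tested only through 48 h, 3 of 9 were called higher. Of all genes tested, 9.86% were called higher and 8.95% lower. Il2rb, the interleukin-2 receptor β chain of T and NK cells, had 18.7, 11.2 and 29.4 CPM at 48 h, against 0.480, 0.911 and 2.48 CPM at 0 h (log2 3.93, SE 0.61, adjusted p = 0.00136). Cd27, a costimulatory receptor, rose 3.00 on the log2 scale (adjusted p = 0.00204), and Cd226, an activating receptor of T and NK cells, rose 3.34 (adjusted p = 0.0247). Cd40lg, the helper T-cell ligand of CD40, had 1.04, 1.30 and 1.03 CPM at 48 h, against 0, 0.0729 and 0.0735 CPM at 0 h (adjusted p = 0.0490). It was at 0 in all 24 h libraries and, unlike Il2rb, Cd27 and Cd226, was tested only through its 48 h libraries. Its 48 h mean was at least 15.0-fold higher than the floor of 12 counts. With upper-quartile scaling its call against 0 h was lost (adjusted p = 0.0539). Il7r, the interleukin-7 receptor of naive T cells, had 1.58, 3.20 and 7.42 CPM at 48 h, against 5.70, 3.35 and 2.70 CPM at 0 h, and the libraries overlapped (adjusted p = 0.96).

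Of 13 transcription factor genes, 2 were called higher and 2 lower at 48 h against 0 h, shares near the 9.86% and 8.95% of all genes for so few members. Ets1, which endothelial cells also express, rose 3.16 on the log2 scale (adjusted p = 7.96e-06) and Gata3, the factor of T helper 2 cells, rose 2.43 (adjusted p = 0.0373). Runx3, a factor of cytotoxic T cells that myeloid cells also express, had 8.98, 7.62 and 9.73 CPM at 48 h, against 19.1, 15.6 and 30.6 CPM at 0 h (log2 −1.31, adjusted p = 0.00869). Zbtb7b, which directs the helper lineage, fell by 1.06 on the log2 scale (adjusted p = 0.0318). With libraries scaled by their totals alone these falls kept their direction and missed the threshold (adjusted p of 0.0638 for Runx3 and 0.229 for Zbtb7b). Of the factors most closely tied to T cells, Bcl11b, which holds T-cell identity, had 1.19, 0.156 and 1.92 CPM at 48 h, against 0.36, 0.291 and 0.367 CPM at 0 h, and was not called (adjusted p = 0.27), and Foxp3, the factor of regulatory T cells, was not called (adjusted p = 0.77).

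Of 14 homing and adhesion genes, 4 were called higher and 4 lower at 48 h against 0 h, beside 9.86% and 8.95% of all genes, with a median log2 fold change of −0.17. Cxcr6, a chemokine receptor of liver-resident lymphocytes, had 5.87, 8.39 and 12.7 CPM at 48 h, against 0.480, 0.0729 and 0.367 CPM at 0 h (log2 4.87, SE 0.70, adjusted p = 0.000798). Cxcr3, a receptor of activated T and NK cells, rose 2.24 on the log2 scale (adjusted p = 0.00485), and Ccr7, which guides naive T cells and dendritic cells to lymph nodes, rose 2.93 (adjusted p = 0.000256). S1pr1, which lymphocytes use to leave lymphoid organs and which endothelial cells also express, rose 2.25 (adjusted p = 0.000766). Those called lower included Itgb7 and Cd44, which monocytes and other myeloid cells also express. With library totals alone Itgb7 was no longer called (log2 −0.72, adjusted p = 0.134). Their names were picked after their values were seen.

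**Figure D3:**
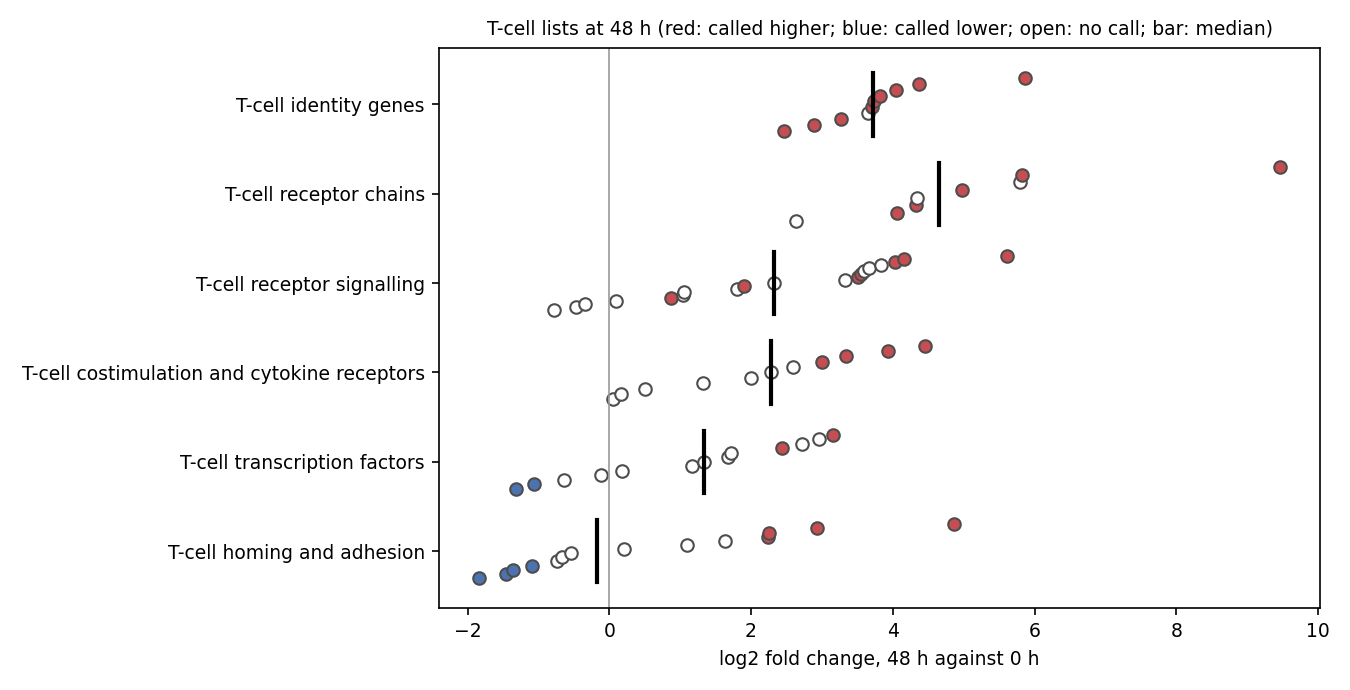
Log2 fold change at 48 h against 0 h of each tested gene of the T-cell lists. Red points were called higher, blue points lower (edgeR adjusted p under 0.05), open points were not called, and black bars are list medians, at 3.72 for the T-cell identity genes and −0.17 for homing and adhesion. The point at 9.46 is Tcrg-C2, at 0 in all 0 h libraries, where the fitted value depends on the prior count.

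Markers of several other cells that a liver sort could hold moved at 48 h as well, beside 9.86% of all genes called higher and 8.95% lower against 0 h. Of 15 B cell markers, 13 were called higher at 48 h against 0 h, and their sum was 54.4 to 137 CPM at 0 h, 38.9 to 75.7 CPM at 24 h and 743 to 1549 CPM at 48 h. Of 12 tested NK cell markers, 9 were called higher, among them all 6 that did not need their 48 h libraries to be tested, with sums of 5.41 to 18.1 CPM at 0 h, 8.32 to 18.1 CPM at 24 h and 83.4 to 208 CPM at 48 h. Klra4, Klra9 and Klra8 had too few counts to test, and Klra4, Klra9, Klra8 and Klrc2 were at 0 in every 0 h library. All 12 liver endothelial markers were called higher, with sums of 486 to 637 CPM at 0 h, 732 to 1149 CPM at 24 h and 10374 to 11227 CPM at 48 h. Conventional and plasmacytoid dendritic cell markers were called higher in 5 of 10 and 4 of 9 cases and lower in 0. Of 10 macrophage and monocyte markers, 7 were called lower and 1 higher, with sums of 65282 to 83865 CPM at 0 h, 38297 to 84442 CPM at 24 h and 10471 to 24278 CPM at 48 h. Of 9 markers of Kupffer cells, the resident macrophages of the liver, 5 were called higher and 0 lower, with sums of 473 to 1134 CPM at 0 h, 1772 to 2337 CPM at 24 h and 1385 to 5190 CPM at 48 h. Hepatocyte markers were called higher in 2 of 12 cases and lower in 1, near the shares of all genes. Of 12 neutrophil markers, 3 were called higher and 1 lower. Their sums were 4949 to 12184 CPM at 0 h, 8469 to 15092 CPM at 24 h and 1655 to 2908 CPM at 48 h. Platelet markers were called higher in 0 of 8 cases and lower in 2, and mast cell and basophil markers higher in 1 of 7 and lower in 0. The part of these cells in the T-cell result was not tested.

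Set against the other lymphocyte markers, the T-cell genes had ratios that overlapped between 0 and 48 h. Their sum was 10.3%, 10.2% and 8.51% of the B cell sum at 0 h, 9.58%, 11.8% and 10.4% at 24 h, and 7.72%, 6.45% and 9.83% at 48 h. As a share of the NK cell sum it came to 94.3%, 109% and 64.4% at 0 h, 76.7%, 55.1% and 43.5% at 24 h, and 68.8%, 69.8% and 64.0% at 48 h. Relative to the endothelial sum the range was 0.926% to 2.39% (0 h), 0.473% to 0.905% (24 h) and 0.511% to 1.29% (48 h). The ratio to the macrophage and monocyte sum did not overlap, with 0.236% to 0.954% at 48 h, against 0.00670% to 0.0178% at 0 h. The library at 0 h with the highest T-cell sum, replicate 3, also had the highest B and NK cell sums of that time, and 48 h replicate 1 had the lowest of all 3 sums at its time.

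**Figure D4:**
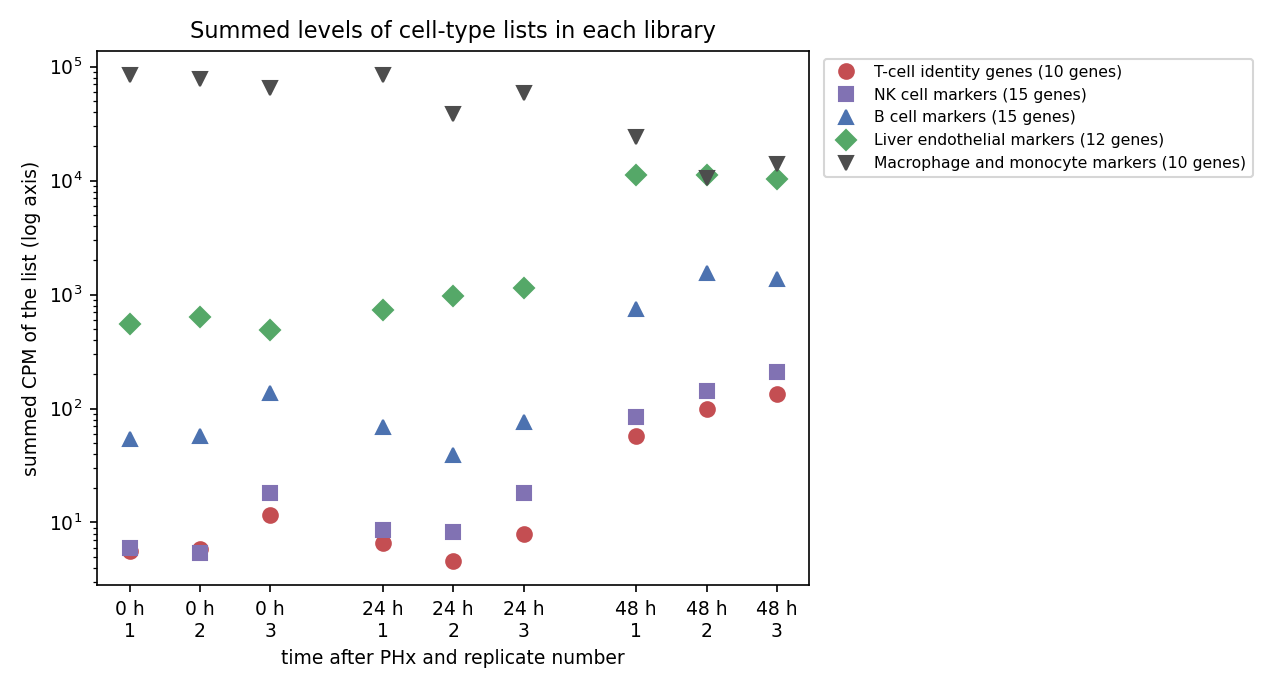
Summed CPM of 5 marker lists in each library, on a log axis, by time after PHx and replicate number. T-cell, NK cell, B cell and endothelial sums are higher in all 48 h libraries than in any earlier library, and the macrophage and monocyte sum is lower, at 10471 to 24278 CPM at 48 h.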

How the data were processed

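RNA of F4/80+CD11b+ liver cells was measured in 3 libraries per time (0, 24 or 48 h following PHx). The authors deposited 1 table of whole-number values per Ensembl gene and library, treated here as estimated counts: among values of 4 to 40, multiples of 4 made up between 40.9% and 47.6%, so a unit is not 1 fragment and totals understate counting error. In the submitters' processing notes the tools are HISAT2 2.0.5, featureCounts 1.5.0-p3 and CASAVA 1.8. No source used here gives their genome build or annotation, so exon lengths come from GENCODE M21 and promoter coordinates from RefSeq, both on GRCm38. Symbols matched 52073 of 56691 IDs, and IDs with no symbol, 1.63% to 3.32% of a library's counts, stayed in the test.

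Genes with too few counts were left out with filterByExpr (minimum count 10), which left 20204. After TMM scaling, edgeR 4.0.16 in R 4.3.3 tested time, its only term, by the quasi-likelihood F test over all 9 libraries at once. The Benjamini-Hochberg adjustment ran over all genes tested, and genes with an adjusted p under 0.05 were called. The SE is the log2 fold change over the square root of F. Levels are CPM scaled by TMM, and correlations used log2 CPM with a prior count of 2. Libraries of a time differed by a chi-square per gene of at least 140, so none was a copy. DESeq2 1.42.0, limma-voom (limma 3.58.1), other scalings and filters and single libraries left out were run as alternatives.

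The members and lists were chosen with earlier results of these data known. Named from each wider list were up to 4 genes with the smallest p among those called at 48 h against 0 h, and, outside all lists, the 5 genes most correlated with the CD3 chains among those with a mean of at least 1 CPM. Other genes named (Cd247, Trdc, Zap70, Il7r, Bcl11b, Foxp3, Itgb7 and Cd44) were chosen after their values were seen. Some members of the wider lists are counted but not reported by name here.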

Additional observations from a re-analysis of the deposited data

How the results depend on the processing

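At 48 h all 10 T-cell identity genes that were tested kept a positive log2 fold change in every alternative run, and 0 were called lower. The number called higher at 48 h against 0 h was 9 as reported, 4 when at least 10 counts were required in every library, a filter that left only Cd4, Lck, Cd2 and Lat to test, 10 with DESeq2, 8 with limma-voom and 5 to 9 with 1 library left out. Against 24 h it was 8 as reported, 4 with that filter, 9 with DESeq2, 7 with limma-voom and 5 to 8 with 1 library left out. The other alternatives stayed within 1.5 times the reported counts. Cd8a was called at 48 h against 0 h by DESeq2 (adjusted p = 0.0246) and with counts divided by 4 (0.0312). With limma-voom Cd3e missed the threshold (0.0511).

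With a replicate block, 7 genes were called higher in each 48 h comparison: Cd4 (adjusted p = 0.0502) and Cd8b1 (0.0565) were lost against 0 h and Tcf7 (0.0771) against 24 h. Correlations of deviations from the time mean were −0.02 to 0.07 between equal numbers and −0.06 to 0.05 between unequal numbers. The highest, 0.07, was between replicate 2 at 0 h and at 24 h. These values showed no clear pairing by number, and with 3 libraries per time they cannot exclude it.

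At 24 h against 0 h, where no gene was called, directions turned. Cd3e had a log2 fold change of 0.018 with RLE scaling and 0.019 with DESeq2, beside −0.01 as reported. With 1 library left out the log2 fold changes ran from −1.25 to 0.36 for Cd3d, −5.21 to 0.90 for Cd3e, −0.37 to 2.09 for Cd8a, −2.13 to 0.24 for Cd8b1, −0.81 to 0.30 for Cd2 and −0.15 to 0.77 for Tcf7.

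Scaling by library totals alone moved the median log2 fold change of all genes to 0.33 at 48 h against 0 h and 0.47 against 24 h, where it was −0.04 and 0.05, and upper-quartile scaling moved it to −0.19 and −0.06. The genes called at 48 h against 0 h were then 3195 higher and 919 lower, and 1674 higher and 2360 lower, beside 1992 and 1809 as reported. Against 24 h they were 3709 and 970, and 1785 and 2318, beside 2070 and 1940. At 24 h against 0 h edgeR called 10 genes higher and 6 lower of all tested, and DESeq2 267 and 107. Of the wider T-cell genes, 14 were called higher in each 48 h comparison with at least 10 counts in every library, and 3 lower with library totals alone.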
